A study of Bos taurus with 18 samples.

Results

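The genes described here are 40 symbols of T cells and natural killer (NK) cells: the T cell receptor complex with its co-receptors, costimulatory and cytokine receptors, signalling proteins, transcription factors, cytotoxic effectors, and chemokines with their receptors. They were taken from the deposited count table by gene symbol. Of its 38001 rows, 41 carried one of these symbols, since GZMB stands on 2 rows, and 40 of the 41 passed the filter on low counts that left 19638 genes for testing. The row that did not pass was CTLA4.

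The samples were cells brushed from the endometrium, the lining of the uterus, of 6 Holstein cows (Bos taurus), and each cow gave 3 of the 18 libraries. Animals A, B and C formed the 17-OHPC/P4 arm. They were sampled on day 7 of a second synchronized cycle, after a depot of 100 mg of 17α-hydroxyprogesterone caproate (17-OHPC) and 10 mg of progesterone (P4) given on day 4, and on days 7 and 4 of a first, untreated control cycle. Animals D, E and F formed the P4 arm, with the same 3 samplings and 100 mg of P4 as the injection. Both cycles of all animals followed Ovsynch synchronization, day 0 was the day of estrus, and the labels used here state no ages. Every treated sample came from the second cycle and every control sample from the first, so the injection and the later cycle cannot be told apart. The brush sampled the uterine horn beside the ovary with the corpus luteum. It takes a mixture that includes surface epithelium and the leukocytes within and on the epithelium. Markers of stroma were also present in every library, in unequal amounts.

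T cells recognise antigen through the T cell receptor, whose signal is carried into the cell by the CD3 chains and the kinases LCK and ZAP70, with CD4 or CD8 as co-receptor. NK cells and cytotoxic T cells kill target cells by releasing perforin and granzymes, and their survival depends on interleukins 2 and 15, which signal through a shared receptor chain, IL2RB. In the uterus of ruminants, lymphocytes lie between the epithelial cells, and progesterone is known to dampen lymphocyte activity there.

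Libraries held 29347255 to 40733544 counts. EPCAM and KRT8, which mark epithelium, were present in every library at 260 to 639 and 316 to 801 CPM (counts scaled to a common library total with TMM factors). CD3E lay between 7.88 and 42.1 CPM in the 18 libraries, and PTPRC, the CD45 antigen carried by all leukocytes, between 33.6 and 120 CPM. Animal C stood apart from the others in markers of other cell types. The red blood cell list summed to 360 CPM in its treated day 7 library, against 4175 and 2389 CPM in its control day 7 and day 4 libraries, and to no more than 5.64 CPM in any other animal. The B cell list summed to 71.1, 155 and 249 CPM in the same libraries of animal C, and to no more than 46.8 CPM elsewhere. The stromal list summed to 3354, 5245 and 7380 CPM in these libraries, and to between 280 and 3542 CPM in the other animals. The neutrophil list, which includes LTF, S100A8, S100A9 and S100A12, ranged from 201 to 20266 CPM over the 18 libraries. Its highest sums were in animal B on control days 7 and 4. In the day 4 library of B, where it reached 20266 CPM, the pan-leukocyte list summed to 448 CPM. The neutrophil sum is therefore not read here as an amount of neutrophils. No marker of these lists or of the epithelial list was at 0 in all libraries. Among counts of the T and NK cell rows from 1 to 20, 93.1% were even (n = 102 values), against 78.3% of such counts over all genes. The sources used here do not say how read pairs were counted, so the number of independent fragments may lie below the count, and no counting intervals are given.

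On day 7 of the untreated cycle, 39 of the 40 tested T and NK cell rows had a fitted level below that of day 4 over both arms, and 2 passed the test. Over both arms, IL2RB, the shared receptor chain for interleukins 2 and 15, fell by 0.88 on the log2 scale (SE 0.21, adjusted p = 0.0174, edgeR), and CD3E, a signalling chain of the T cell receptor complex, fell by 0.80 (SE 0.21, adjusted p = 0.0292). These 2 of the 40 tested rows were called lower at an adjusted p under 0.05 and 0 were called higher, against 4.28% and 6.27% of all 19638 genes. With the animal as a block the count of lower members was 13, adding CD3D, CD8A, CD8B, CD2, CD6, LCK, GZMA, PRF1, NCR1, CXCR6 and CCL5, and with DESeq2 it was 9. Lower calls over all genes also became more frequent, at 7.32% with the block and 7.0% of the genes DESeq2 tested. Of all genes 53.9% had a fitted change below 0. The median was -0.75 over the members and -0.05 over all genes. At an unadjusted p under 0.05, 18 members were lower (12.9% of all genes) and 0 higher (13.9%). The change was downward in each of the 6 animals for 13 members (9.02% of all genes) and upward in each for 0 (10.5%). The mixture in the brush was measured as a whole, so fewer T and NK cells and less of these RNAs per cell cannot be told apart.

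**Figure D1:**
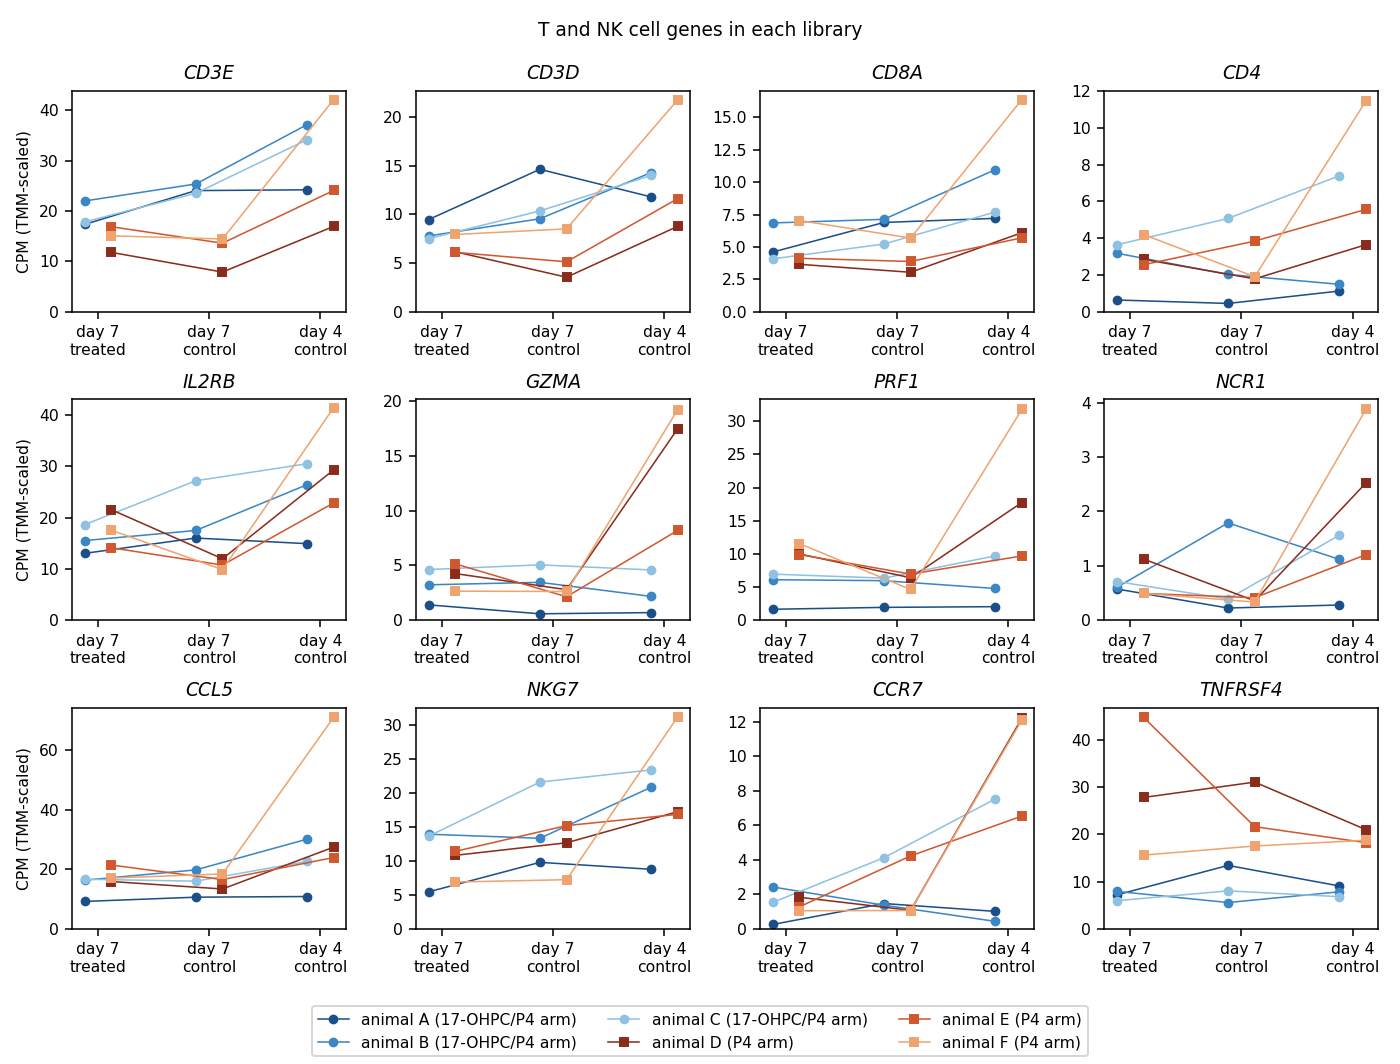
Level of 12 T and NK cell genes in each of the 18 libraries, in CPM with TMM scaling (linear axis from 0). Each line joins the libraries of 1 animal, circles and blue shades are the 17-OHPC/P4 arm, and squares and red shades are the P4 arm. For most panels the day 4 library of animal F is the highest point, and TNFRSF4 separates the arms in every condition.

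The T cell receptor complex and its co-receptors comprised 7 rows, with median changes of -0.39 in animals A to C and -1.21 in animals D to F. CD3E stood at 24.1, 25.4 and 23.5 CPM on control day 7 in animals A, B and C, against 24.2, 37.1 and 34.1 CPM on day 4. In animals D, E and F it stood at 7.88, 13.6 and 14.4 CPM on control day 7, against 16.9, 24.1 and 42.1 CPM on day 4. All 6 animals were lower on day 7, with animal A nearly level, and the groups overlapped in the 17-OHPC/P4 arm but not in the P4 arm. CD3D, another CD3 chain, measured 3.55, 5.13 and 8.51 CPM on day 7 in animals D, E and F, against 8.77, 11.6 and 21.8 CPM on day 4, again with no overlap. In animals A, B and C it measured 14.6, 9.55 and 10.4 CPM on day 7, against 11.8, 14.3 and 14.0 CPM on day 4, higher in animal A and lower in the other two. In the P4 arm alone CD3E fell by 1.21 (SE 0.31, adjusted p = 0.0277) and CD3D by 1.29 (SE 0.36, adjusted p = 0.0374). The changes in the 17-OHPC/P4 arm were -0.39 ± 0.30 and -0.22 ± 0.35 (log2 fold change ± SE, as in all fitted changes below), with adjusted p of 0.756 and 0.889.

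CD3G, the third of the CD3 chains tested here, had 4.74, 5.31 and 5.30 CPM on control day 7 in the 17-OHPC/P4 arm, against 5.69, 5.70 and 5.86 CPM on day 4, and 2.40, 2.29 and 2.60 CPM in the P4 arm, against 3.22, 4.71 and 7.80 CPM. The day 7 values lay below all day 4 values within each arm, but the fitted change did not pass in the P4 arm (-1.11 ± 0.34, adjusted p = 0.0551). CD8A and CD8B encode the co-receptor of cytotoxic T cells. CD8A had 6.89, 7.13 and 5.23 CPM on day 7 in animals A, B and C, against 7.21, 11 and 7.69 CPM on day 4, and 3.04, 3.88 and 5.68 CPM in animals D, E and F, against 6.10, 5.70 and 16.4 CPM. The ranges did not overlap in either arm. CD8B had 1.55, 2.92 and 1.96 CPM on day 7 in the 17-OHPC/P4 arm, against 2.03, 4.05 and 2.90 CPM on day 4, and 0.716, 1.11 and 1.60 CPM in the P4 arm, against 1.30, 1.95 and 5.60 CPM. It was lower on day 7 in every animal, with overlap between the days in both arms. The P4 arm changes of CD8A (-1.16 ± 0.43, adjusted p = 0.10) and CD8B (-1.37 ± 0.54, adjusted p = 0.126) did not pass.

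CD4, the co-receptor of helper T cells, was variable between animals. It had 0.452, 2.03 and 5.08 CPM on day 7 in animals A, B and C, against 1.13, 1.49 and 7.39 CPM on day 4. In animals D, E and F it had 1.79, 3.84 and 1.90 CPM on day 7, against 3.65, 5.57 and 11.5 CPM on day 4. Animal B was higher on day 7, the other animals were lower, and animal A was lowest throughout. The fitted change over both arms was -0.93 ± 0.61 (adjusted p = 0.360). CD247, the zeta chain that carries the receptor's signalling motifs and also serves NK receptors, was lower on day 7 in 6 of 6 animals (-0.56 ± 0.26, adjusted p = 0.174). In the fit that blocks on the animal, 6 of these 7 rows were called lower in the P4 arm (7.33% of all genes), CD4 being the exception (adjusted p = 0.0960). The main fit called 2 of the 7 there. The blocked fit called no member in the 17-OHPC/P4 arm (0.0153% of all genes lower).

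Among the cytokine receptors, IL2RB carried the smallest adjusted p of all members. It had 12, 10.8 and 9.88 CPM on control day 7 in animals D, E and F, against 29.3, 22.9 and 41.5 CPM on day 4. In animals A, B and C it had 16.0, 17.5 and 27.2 CPM on day 7, against 14.9, 26.4 and 30.5 CPM on day 4. The P4 arm ranges lay apart, while in the 17-OHPC/P4 arm they overlapped and animal A was slightly higher on day 7. IL2RB fell by 1.52 in the P4 arm (SE 0.30, adjusted p = 0.0112) and had -0.24 ± 0.29 in the 17-OHPC/P4 arm (adjusted p = 0.845). The difference between the arms in this change was 1.28 ± 0.42 (unadjusted p = 0.00822), and it did not pass over all genes (adjusted p = 0.555). IL2RG, the chain common to several interleukin receptors, had -0.19 ± 0.37 over both arms (adjusted p = 0.788). IL7R, the receptor for interleukin 7, had a fitted change near 0 (SE 0.82, adjusted p = 1.0) from opposite changes within animals. In log2(CPM + 0.5) IL7R rose by 1.96, 0.83 and 1.26 in A, B and E. It changed by -0.25, -0.22 and -2.60 in C, D and F. IL7R ranged from 1.71 to 21.1 CPM on control day 7 and from 0.732 to 25.2 CPM on day 4. IL2RA, the alpha chain that raises the affinity for interleukin 2, and IL12RB2, a chain of the interleukin 12 receptor, were also not called, with -0.50 ± 0.66 and -0.29 ± 0.70.

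The 7 cytotoxic and NK rows had a median change of -0.21 in animals A to C and of -2.54 in animals D to F. GZMA, granzyme A, stood at 2.79, 2.15 and 2.63 CPM on control day 7 in the P4 arm, against 17.5, 8.20 and 19.2 CPM on day 4. In the 17-OHPC/P4 arm it stood at 0.593, 3.46 and 5.05 CPM on day 7, against 0.704, 2.18 and 4.59 CPM on day 4. The day 4 libraries of animals D, E and F, at 8.2 CPM or more, stood above the other 15 libraries, which reached at most 5.14 CPM. GZMA fell by 2.56 in the P4 arm (SE 0.74, adjusted p = 0.0456) and had 0.28 ± 0.70 in the 17-OHPC/P4 arm (adjusted p = 0.935). NCR1, the activating receptor NKp46 used as a marker of NK cells, had 0.358, 0.416 and 0.336 CPM on day 7 in the P4 arm, against 2.52, 1.21 and 3.88 CPM on day 4. Among animals A, B and C NCR1 had 0.226, 1.79 and 0.392 CPM on day 7, against 0.281, 1.12 and 1.56 CPM on day 4. The P4 arm values lay apart by day and those of the 17-OHPC/P4 arm did not. NCR1 fell by 2.77 in the P4 arm (SE 0.77, adjusted p = 0.0401) and had -0.30 ± 0.72 in the 17-OHPC/P4 arm (adjusted p = 0.932).

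PRF1 encodes perforin, which forms pores in target cells. It had 6.41, 6.96 and 4.65 CPM on control day 7 in animals D, E and F, against 17.7, 9.69 and 31.8 CPM on day 4. In animals A, B and C it had 1.95, 5.97 and 6.35 CPM on day 7, against 2.05, 4.79 and 9.70 CPM on day 4. The P4 arm values did not overlap, yet the change did not pass (-1.72 ± 0.63, adjusted p = 0.0989), and it passed once the animal entered as a block (adjusted p = 0.0182). GZMB, granzyme B, stands on 2 rows whose reads the counting could have split between near-identical copies, so both are uncertain. ENSBTAG00000010057 had 0.143, 0.485 and 0.0560 CPM on day 7 in the P4 arm, against 2.40, 2.15 and 6.31 CPM on day 4, and ENSBTAG00000056468 had 0.537, 1.14 and 0.448 CPM, against 3.67, 2.72 and 5.98 CPM. In animals A, B and C ENSBTAG00000010057 had 0.113, 0.179 and 0.932 CPM on day 7, against 0, 0.0623 and 1.04 CPM on day 4, and ENSBTAG00000056468 had 0.226, 1.07 and 4.02 CPM, against 0.422, 0.311 and 2.13 CPM. Both rows lay apart by day in the P4 arm and overlapped in the 17-OHPC/P4 arm. The value of 0 is the day 4 library of animal A, where 3 counts would be 0.0844 CPM. Neither row passed in the P4 arm (-3.98 ± 1.46 and -2.54 ± 0.99, adjusted p = 0.0998 and 0.121).

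NKG7, a protein of cytotoxic granules, had 12.6, 15.2 and 7.22 CPM on day 7 in the P4 arm, against 17.2, 16.8 and 31.2 CPM on day 4. In the 17-OHPC/P4 arm it had 9.77, 13.3 and 21.6 CPM on day 7, against 8.75, 20.8 and 23.3 CPM on day 4. The P4 arm ranges were apart, with the smallest gap in animal E. The change there was -0.90 ± 0.46 (adjusted p = 0.237). KLRK1, the activating receptor NKG2D, was lower on day 7 in 6 of 6 animals and did not pass (-0.63 ± 0.30, adjusted p = 0.194). CCL5, a chemokine that cytotoxic lymphocytes release, had 13.4, 16.6 and 18.4 CPM on day 7 in animals D, E and F, against 27.5, 24.0 and 71.1 CPM on day 4. In animals A, B and C it had 10.6, 19.8 and 16.0 CPM on day 7, against 10.9, 30.1 and 22.7 CPM on day 4. It was lower on day 7 in every animal, with the day 4 library of animal F far above the rest, and its P4 arm change did not pass (-1.34 ± 0.43, adjusted p = 0.0655). CCR7, the receptor that guides naive and memory T cells to lymph nodes, had -2.28 ± 0.97 in the P4 arm (adjusted p = 0.153). CXCR3 and CXCR6, receptors that draw lymphocytes into tissue, had -1.01 ± 0.46 and -1.27 ± 0.42 there (adjusted p = 0.176 and 0.0749).

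LCK had -1.13 ± 0.35 in the P4 arm (adjusted p = 0.0555) and -0.30 ± 0.34 in the 17-OHPC/P4 arm, and ZAP70 had -1.02 ± 0.37 and -0.29 ± 0.36. Both kinases were lower on day 7 in 6 of 6 animals. The other members of the signalling group were the adaptors LAT, TRAT1 and SH2D1A and the regulators THEMIS and UBASH3A. Their P4 arm changes lay between -1.07 and -0.81, and none passed. CD2, an adhesion receptor, had -1.03 ± 0.37 over both arms (adjusted p = 0.0848) and CD6, a surface receptor that tunes T cell activation, -1.14 ± 0.43 (adjusted p = 0.0997), each lower in 6 of 6 animals. CD27, a costimulatory receptor, was also lower in 6 of 6 (-0.96 ± 0.70, adjusted p = 0.417), and animal C held 15.2 and 26.0 CPM of it on control days 7 and 4, against at most 6.42 CPM in any other animal. CD5, an inhibitory receptor of T cells, had -0.75 ± 0.48, and the costimulatory receptors CD28 and ICOS had -0.75 ± 0.83 and -0.31 ± 0.65, with adjusted p of 0.344, 0.615 and 0.804. Of the transcription factors, TBX21, which directs type 1 responses, had -0.95 ± 0.44 (adjusted p = 0.177), EOMES -0.33 ± 0.52 and GATA3, which directs type 2 responses, -0.42 ± 0.44. GATA3 had 0.452, 0.776, 1.03, 0.501, 0.416 and 0.672 CPM on control day 7 in animals A to F, against 0.338, 0.311, 1.56, 0.650, 0.548 and 1.73 CPM on day 4, with wide overlap. TNFRSF4, the costimulatory receptor OX40, was the 1 member with a fitted change above 0 over both arms (0.23 ± 0.25, adjusted p = 0.612). CTLA4, the inhibitory receptor, had 2, 0, 4, 2, 0 and 2 counts on treated day 7 in animals A to F, 0, 2, 38, 0, 0 and 2 on control day 7, and 0, 0, 18, 2, 8 and 8 on day 4. It did not pass the filter, so no change was tested, and its highest level was 0.932 CPM in animal C.

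**Figure D2:**
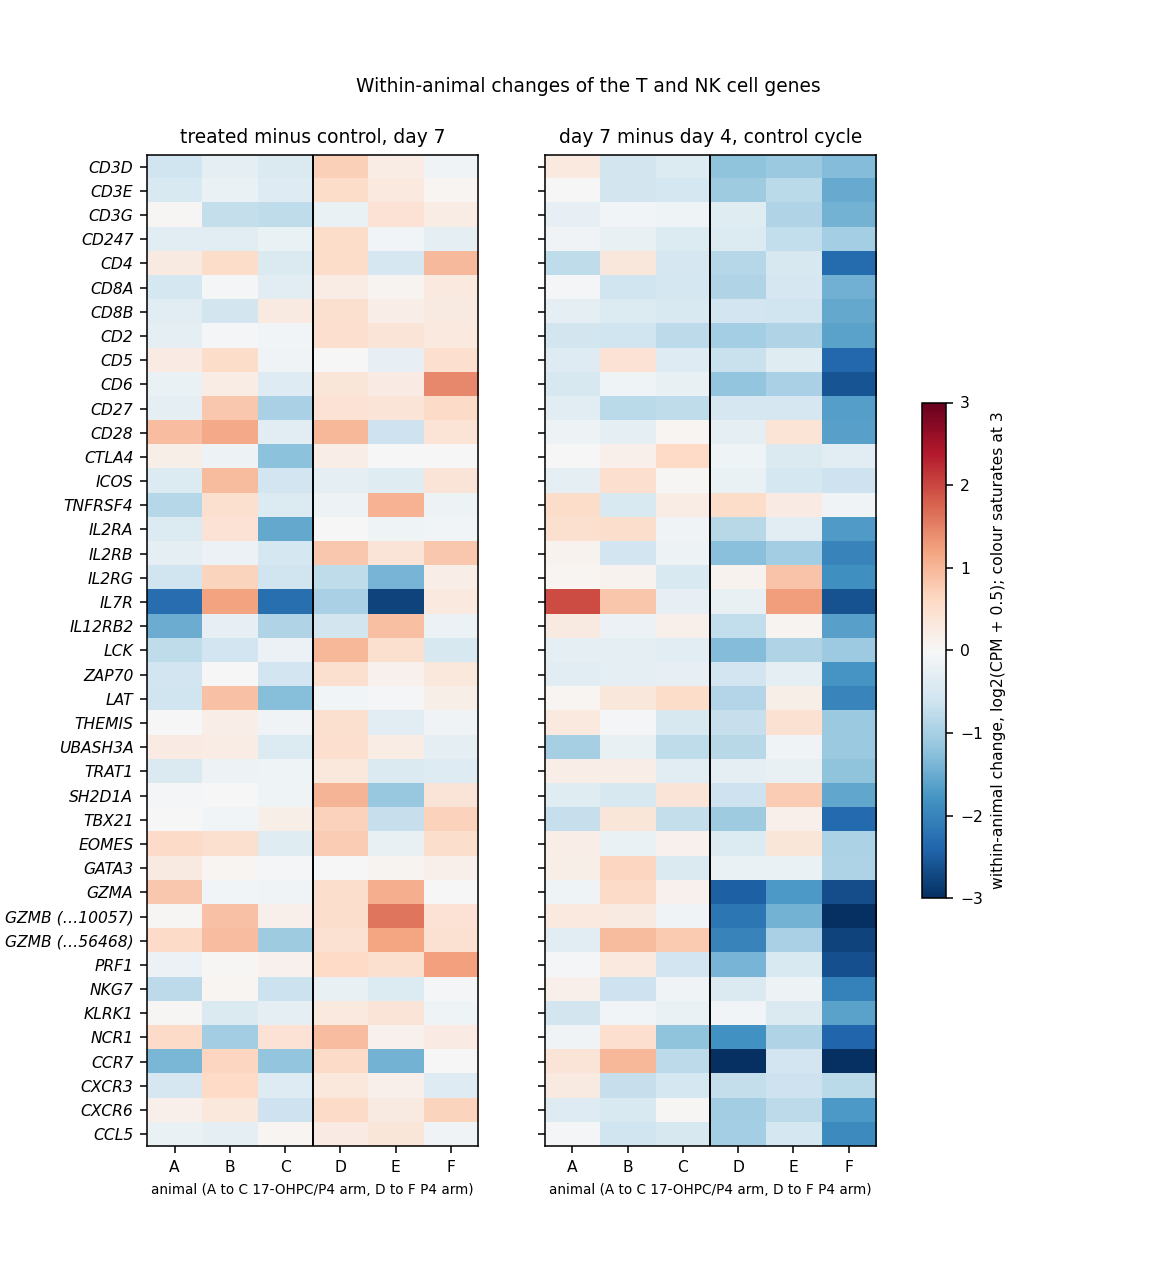
Within-animal differences of the 41 rows in log2(CPM + 0.5), as colour from -3 (blue) to 3 (red), with animals in columns and genes grouped by role in rows. The left panel is treated minus control day 7 and the right panel day 7 minus day 4 of the control cycle, and the vertical line separates animals A to C from D to F. The right panel is blue in most cells, and in animal F NKG7 changed by -2.04 and CD8B by -1.54.

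In the P4 arm as a whole, 5 of the 40 members were called lower on day 7 than on day 4 (CD3E, CD3D, IL2RB, GZMA and NCR1) and 0 higher, against 4.0% and 4.64% of all genes. With the animal as a block the count was 17, adding CD3G, CD247, CD8A, CD8B, CD2, CD6, LCK, PRF1, both GZMB rows, CXCR6 and CCL5, and with DESeq2 it was 13. The share of all genes called lower was then 7.33% with the block and 7.74% with DESeq2. Before adjustment, 22 were lower at p under 0.05 (12.9% of all genes) and 0 higher (13.1%). The change was below 0 for 39 members (50.7% of all genes), the median was -1.14 against -0.01 over all genes, and 30 members were lower in each of the 3 animals (27.3% of all genes). The groups did not overlap, with day 7 lower, for 19 members, against 18.0% of all genes. In the 17-OHPC/P4 arm 0 members were called in either direction by edgeR, DESeq2 or with the block, and the all-gene shares were 0.0% lower and 0.0407% higher by edgeR, and 0.444% and 1.77% by DESeq2. At an unadjusted p under 0.05 there were also 0, against 3.23% of all genes lower and 6.39% higher. There, 30 members lay below 0 (55.5% of all genes), the median was -0.23 against -0.06, 13 were lower in each of the 3 animals (22.5%), and 3 did not overlap (6.54%). The difference between the arms in this change was above 0 for 38 of the 40 members (51.9% of all genes lay below 0), yet 0 passed over all genes by edgeR, DESeq2 or with the block. Of all genes 0.0% passed in either direction by edgeR and with the block, and 0.238% were higher and 0.195% lower by DESeq2. At an unadjusted p under 0.05 it was higher for 5 members (4.2% of all genes). Besides IL2RB, CD3D and the GZMB row ENSBTAG00000056468, these were GZMA (2.85 ± 1.01, adjusted p = 0.558) and NCR1 (2.46 ± 1.04, adjusted p = 0.614).

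The day 4 library of animal F held the highest value of 32 of the 41 rows, and the member sum was 613 CPM there, against 185 to 397 CPM in the other day 4 libraries. Without it, 0 members were called in the P4 arm and 0 over both arms, and the share of all genes called lower also dropped, to 0.925% in the P4 arm and 2.24% over both. CD3E then had a log2 change of -0.78 in the P4 arm (adjusted p = 0.139) and IL2RB one of -1.26 (adjusted p = 0.0569), while GZMA had -2.35 (0.129), NCR1 -2.32 (0.136) and CD3D -0.83 (0.190). Leaving out the control day 7 library of animal D left 0 calls in the P4 arm, and leaving out either control library of animal E left 1. All-gene shares called lower were then 0.446% without the library of D, and 0.596% and 1.35% without the day 4 and the day 7 library of E. Over both arms the count was 0 after removing animal A's control day 7 library (1.52% of all genes lower). It was 1 after removing the day 4 or the control day 7 library of animal B (4.16% and 2.08% of all genes lower). It was also 1 without the day 4 library of C (2.58%) or of E (1.77%), or the control day 7 library of D (1.41%). That 1 member was IL2RB, except without control day 7 of B, where IL2RB and CD3E were both lost and NCR1 was called instead (log2 change -2.18, adjusted p = 0.0171). The CD3E call over both arms was lost in each of these cases (adjusted p of 0.0505 to 0.0937) and without the day 4 library of F (0.081), while the IL2RB call did not survive removing control day 7 of A (0.0551) or B (0.0534) or day 4 of F (0.0524). The count over both arms was 5 after removing A's day 4 library (3.45% of all genes lower). It was 4 after removing F's control day 7 library, where the share of all genes called lower also rose, to 7.64%. The GZMA and NCR1 calls were lost whichever of the 6 P4 arm libraries was left out. Without all 3 libraries of animal C the count over both arms was 1, IL2RB (2.88% of all genes lower). Without those of animal F it was 1 over both arms, CD3D (4.3%), and 0 in the P4 arm (1.9%).

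**Figure D3:**
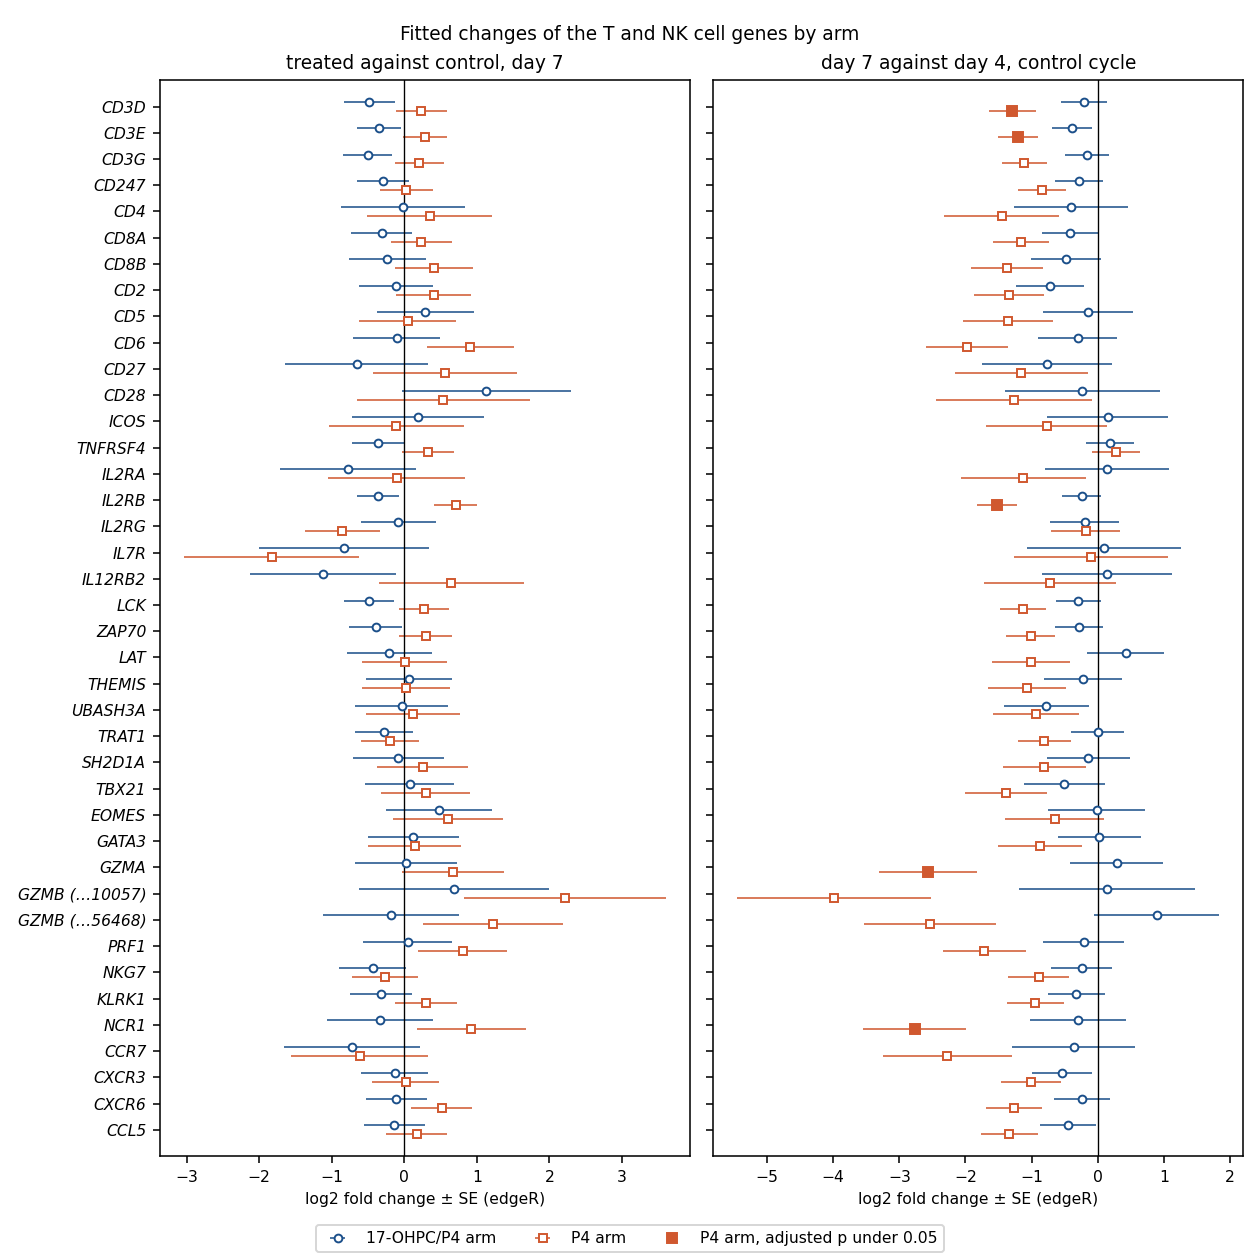
Fitted log2 fold changes with their SE (edgeR) for the 40 tested rows, treated against control day 7 on the left and day 7 against day 4 of the control cycle on the right. Circles are the 17-OHPC/P4 arm, squares the P4 arm, and filled squares mark an adjusted p under 0.05. On the right the P4 arm lies left of the 17-OHPC/P4 arm for 38 of the 40 rows, and on the left no marker is filled.

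For other genes of lymphocytes, calls between day 7 and day 4 over both arms stand against 4.28% of all genes lower and 6.27% higher. In lists of 17 or 18 genes, 1 call is near those shares. Of 17 further cytotoxic and NK rows 1 fell and 0 rose: CTSW, the protease cathepsin W of cytotoxic lymphocytes (-1.09 ± 0.26, adjusted p = 0.0168). Of 18 lymphocyte transcription factors ZNF683, a regulator of tissue-resident lymphocytes, fell (-1.27 ± 0.37, adjusted p = 0.0420), and MAF, a factor of helper T cells and other leukocytes, rose (1.30 ± 0.31, adjusted p = 0.0165). Of 18 other T cell receptor signalling genes none was called over both arms, and RASGRP1, an exchange factor for Ras, fell in the P4 arm (-1.52 ± 0.37, adjusted p = 0.0225). Of 25 further surface and checkpoint rows none was called. IL10, an inhibitory cytokine made by many leukocytes, rose (3.72 ± 0.61, adjusted p = 0.00302), with 1.30, 1.13, 1.32, 3.44, 2.84 and 1.04 CPM on control day 7 in animals A to F, against 0.281, 0, 0.248, 0.10, 0.0877 and 0.0934 CPM on day 4. In the day 4 libraries 1 count was 0.0219 to 0.0311 CPM, so these day 4 values rest on few counts and the size of the rise is uncertain. FOXP3, the factor of regulatory T cells, was not called (0.15 ± 0.31, adjusted p = 0.808). IFNG, the interferon of type 1 lymphocytes, was at or below 0.336 CPM in every library (-0.33 ± 0.87, adjusted p = 0.851), and CD69, an activation marker, was not called (-0.86 ± 0.62, adjusted p = 0.406). TRDC was not analysed here.

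Of 16 ligands that attract or sustain lymphocytes 2 fell over both arms (4.28% of all genes), CXCL10, the ligand of CXCR3 (-1.78 ± 0.43, adjusted p = 0.0187), and CCL20, the ligand of CCR6 (-2.39 ± 0.67, adjusted p = 0.0339). The summed CPM of the list did not fall in most animals. A sum follows its most abundant rows, so it does not show how each ligand moved. The list summed to 348, 261, 244, 412, 367 and 185 CPM on control day 7 in animals A to F, against 108, 215, 235, 197, 265 and 334 CPM on day 4. The sum was higher on day 7 in every animal except F. CXCL10 had 1.61, 3.19 and 5.26 CPM on day 7 in the P4 arm, against 12.7, 15.2 and 50.2 CPM on day 4, with no overlap. In the 17-OHPC/P4 arm it had 5.03, 3.76 and 4.32 CPM on day 7, against 4.67, 8.41 and 6.75 CPM on day 4, higher in animal A and lower in the other two. IL15, whose receptor contains IL2RB, fell in the P4 arm (-2.0 ± 0.59, adjusted p = 0.0492), with 2.01, 2.91 and 2.97 CPM on day 7, against 8.42, 9.93 and 13.2 CPM on day 4. Animals A, B and C had IL15 at 2.12, 2.77 and 5.18 CPM on day 7, against 3.21, 5.70 and 5.29 CPM on day 4, lower in each animal.

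Markers of other cells moved as follows between the same days. Of 13 pan-leukocyte rows 0 were called, 10 lay below 0, and the median change was -0.36. Their sum ran from 281 to 765 CPM on control day 7 and from 334 to 757 CPM on day 4. PTPRC was not called (-0.41 ± 0.25, adjusted p = 0.332), and the log2 ratio of CD3E to PTPRC, chosen after seeing the data, differed by -0.38 ± 0.43 (SD, n = 6 animals), lower on day 7 in 5 of 6. Of the 13 B cell, 12 macrophage, 10 neutrophil, 10 stromal and 8 endothelial rows 0 were called, and CD79A of B cells (-0.18 ± 0.49), CD14 of monocytes (0.50 ± 0.62), VIM of stroma (0.52 ± 0.69) and PECAM1 of endothelium (-0.40 ± 0.53) had adjusted p of 0.856, 0.664, 0.683 and 0.688. EPCAM (0.03 ± 0.19, adjusted p = 0.949) and KRT8 (-0.36 ± 0.23, adjusted p = 0.349) were not called, and of 12 epithelial rows CLDN7 rose (1.28 ± 0.26, adjusted p = 0.00865). Of 14 proliferation genes 7 fell (4.28% of all genes), among them MKI67 (-2.31 ± 0.70, adjusted p = 0.0475), TOP2A (-2.43 ± 0.72, adjusted p = 0.0456), AURKB (-1.78 ± 0.50) and MCM2 (-1.27 ± 0.29). The animals differed in sign: MKI67, TOP2A and AURKB were lower on day 7 in A, D, E and F and higher in B and C. MKI67 changed by 0.96 and 0.40 in B and C and by -4.06 in A. MCM2 was lower in every animal except B. The proliferation list summed to 380 to 540 CPM on control day 7 and to 220 to 2023 CPM on day 4, none of its genes was at 0 in all libraries, and its part in the changes of the T and NK cell genes was not tested.

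The injection was assessed by treated against control day 7, and no member passed the test. By edgeR, by DESeq2 and with the animal as a block, 0 of the 40 members were called in the 17-OHPC/P4 arm, in the P4 arm or over both, and 0.0% of all genes were called in either direction in each of these comparisons by edgeR. Over both arms 19 members lay below 0 (50.8% of all genes), and at an unadjusted p under 0.05 there were 0 in either direction (2.64% lower and 1.69% higher). Under 17-OHPC/P4, 30 members lay below 0 (54.9% of all genes), the median was -0.19 against -0.05 over all genes, and 10 were lower in each of the 3 animals (20.8%). Under P4 alone, 7 members lay below 0 (48.3% of all genes), the median was 0.28 against 0.02, and 14 were higher in each of the 3 animals (9.96%). At an unadjusted p under 0.05, 0 members differed under 17-OHPC/P4 (0.968% of all genes lower and 0.922% higher), and 1 was higher under P4 (1.6%) and 0 lower (1.43%). The control day 7 libraries also enter the comparison with day 4, so the P4 arm values of the comparisons share those 3 libraries.

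That 1 member was IL2RB. It had 21.6, 14.1 and 17.6 CPM on treated day 7 in animals D, E and F, against 12, 10.8 and 9.88 CPM on control day 7, a change of 0.71 ± 0.30 (unadjusted p = 0.0314, adjusted p = 1.0). In animals A, B and C it had 13.0, 15.5 and 18.6 CPM on treated day 7, against 16.0, 17.5 and 27.2 CPM on control day 7, a change of -0.36 ± 0.30 (adjusted p = 0.990). The P4 arm values did not overlap, and in the 17-OHPC/P4 arm each animal was lower under treatment with overlap. The difference between the arms in the response was -1.07 ± 0.42 (unadjusted p = 0.0223, adjusted p = 1.0). Across the members 0 of these differences between arms passed by edgeR, DESeq2 or with the block, with 0.0% of all genes passing by edgeR and by DESeq2. They lay below 0 for 34 of 40 (54.0% of all genes), and at an unadjusted p under 0.05 IL2RB was the 1 lower (0.861%), with 0 higher (0.397%). The fitted responses of the 5 cytokine receptors ran from -1.83 to 0.71 under P4, with 3 below 0. Under 17-OHPC/P4 they ran from -1.12 to -0.08. Within animals IL7R was lower under treatment in 4 of 6, and higher in B and F.

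CD3E had 17.3, 22.0 and 17.8 CPM on treated day 7 in the 17-OHPC/P4 arm, against 24.1, 25.4 and 23.5 CPM on control day 7, and 11.8, 16.9 and 15.1 CPM in the P4 arm, against 7.88, 13.6 and 14.4 CPM. The 17-OHPC/P4 libraries were all lower and did not overlap, the P4 arm libraries were each higher and overlapped, and neither change passed (-0.35 ± 0.30 and 0.28 ± 0.30, adjusted p = 0.990 and 1.0). CD3D had 9.47, 7.79 and 7.50 CPM on treated day 7 in the 17-OHPC/P4 arm, against 14.6, 9.55 and 10.4 CPM, and 6.16, 6.10 and 7.93 CPM in the P4 arm, against 3.55, 5.13 and 8.51 CPM. Its values also lay apart in the 17-OHPC/P4 arm (-0.48 ± 0.35, adjusted p = 0.990). TRAT1 was the remaining member of this kind in that arm, making 3 of 40 lower without overlap (4.57% of all genes). CD3G had 4.89, 3.03 and 2.90 CPM on treated day 7 in the 17-OHPC/P4 arm, against 4.74, 5.31 and 5.30 CPM, and 2.01, 3.25 and 3.15 CPM in the P4 arm, against 2.40, 2.29 and 2.60 CPM, with overlap in both.

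The co-receptors overlapped between treated and control day 7 in both arms. CD8A had 4.61, 6.85 and 4.08 CPM under 17-OHPC/P4, against 6.89, 7.13 and 5.23 CPM, and 3.66, 4.12 and 7.04 CPM under P4, against 3.04, 3.88 and 5.68 CPM. CD8B had 1.15, 1.82 and 2.49 CPM under 17-OHPC/P4, against 1.55, 2.92 and 1.96 CPM, and 1.2, 1.34 and 2.04 CPM under P4, against 0.716, 1.11 and 1.60 CPM. CD4 had 0.640, 3.18 and 3.64 CPM under 17-OHPC/P4, against 0.452, 2.03 and 5.08 CPM, and 2.85, 2.56 and 4.20 CPM under P4, against 1.79, 3.84 and 1.90 CPM. The fitted changes of these co-receptors ran from -0.31 to 0.41 and had adjusted p of 0.990 or above.

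Under treatment, PRF1, NCR1, IL2RB and CD27, a costimulatory receptor, were higher without overlap in the P4 arm (4 of 40 members, 3.34% of all genes), and 0 were higher in this way in the 17-OHPC/P4 arm (3.98%). PRF1 had 9.99, 9.90 and 11.5 CPM on treated day 7 in animals D, E and F, against 6.41, 6.96 and 4.65 CPM on control day 7 (0.80 ± 0.62, adjusted p = 1.0). NCR1 had 1.13, 0.494 and 0.494 CPM, against 0.358, 0.416 and 0.336 CPM (0.92 ± 0.75, adjusted p = 1.0). The NCR1 values rest on 16 to 32 counts per treated library and 10 to 12 per control library. Under 17-OHPC/P4, PRF1 had 1.66, 6.12 and 6.96 CPM on treated day 7, against 1.95, 5.97 and 6.35 CPM, and NCR1 had 0.576, 0.607 and 0.712 CPM, against 0.226, 1.79 and 0.392 CPM. The changes there were 0.05 ± 0.61 and -0.34 ± 0.73, with the sign differing between animals for both genes.

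GZMA had 1.41, 3.24 and 4.63 CPM on treated day 7 in the 17-OHPC/P4 arm, against 0.593, 3.46 and 5.05 CPM, and 4.26, 5.14 and 2.66 CPM in the P4 arm, against 2.79, 2.15 and 2.63 CPM, with overlap in both. The GZMB row ENSBTAG00000010057 was the 1 member higher in each of the 6 animals (2.35% of all genes), with 0.128, 0.758, 1.1, 0.422, 2.5 and 0.247 CPM on treated day 7 in animals A to F, against 0.113, 0.179, 0.932, 0.143, 0.485 and 0.0560 CPM on control day 7. These values rest on 4 to 86 counts under treatment and 2 to 38 in the control cycle, with 4 in both libraries of animal A, and the changes were 0.68 ± 1.31 and 2.21 ± 1.39 (adjusted p = 0.990 and 1.0). The other GZMB row, ENSBTAG00000056468, had 0.576, 2.48, 1.64, 0.915, 3.25 and 0.803 CPM, against 0.226, 1.07, 4.02, 0.537, 1.14 and 0.448 CPM, higher in 5 of 6 animals and lower in animal C. NKG7 had 5.44, 13.9, 13.6, 10.8, 11.4 and 6.88 CPM on treated day 7, against 9.77, 13.3, 21.6, 12.6, 15.2 and 7.22 CPM, and CCL5 had 9.21, 16.4, 16.7, 15.9, 21.4 and 17.1 CPM, against 10.6, 19.8, 16.0, 13.4, 16.6 and 18.4 CPM. Both overlapped widely, and so did GATA3, with 0.640, 0.834, 0.986, 0.493, 0.465 and 0.803 CPM on treated day 7.

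Pan-leukocyte, macrophage and stromal markers had fitted changes mostly below 0 between treated and control day 7 in both arms, with 0 called. The pan-leukocyte list had a median of -0.50 with 13 of 13 rows below 0 under 17-OHPC/P4 and of -0.60 with 11 of 13 below 0 under P4. It summed to 165 to 581 CPM on treated day 7 and 355 to 671 CPM on control day 7 in the 17-OHPC/P4 arm, and to 235 to 371 and 281 to 765 CPM in the P4 arm. Of 12 macrophage and dendritic rows 12 lay below 0 under 17-OHPC/P4 and 10 under P4, with CD14 at -1.83 ± 0.91 and -2.66 ± 0.93. The stromal list had 10 of 10 rows below 0 under 17-OHPC/P4 and 8 of 10 under P4, with medians of -0.75 and -0.71. No row of these 3 lists was at 0 in all libraries, and their part in the values of the T and NK cell genes was not tested. By animal, the pan-leukocyte and macrophage sums were lower under treatment except in animal B (581 against 477 and 142 against 111 CPM). The stromal sum was higher in A and F and lower in the others. The B cell sum was higher under treatment in B, D and F and lower in A, C and E. The sum of the neutrophil list, not read as an amount of neutrophils, was higher in D (7994 against 1928 CPM) and lower in the others.

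Set against control day 4, treated day 7 showed 0 called members in the 17-OHPC/P4 arm by edgeR, DESeq2 or with the block (all genes 0.657% higher and 0.0255% lower by edgeR, 5.43% and 2.36% by DESeq2, 4.24% and 1.0% with the block). At an unadjusted p under 0.05, 2 were lower there (9.39% of all genes), CD3E (-0.74 ± 0.30) and LCK (-0.78 ± 0.34), and 0 higher (11.1%). In the P4 arm 0 were called by edgeR (all genes 4.32% higher and 3.16% lower), 9 once the animal entered as a block (all genes 7.77% higher and 5.99% lower) and 4 with DESeq2 (8.26% and 6.19%), all lower. Of the members, 14 were lower at an unadjusted p under 0.05 (11.0% of all genes) and 0 higher (13.3%). The 9 were CD3D, CD3E, CD8A, CD2, IL2RB, GZMA, NKG7, CCR7 and CCL5. The median change was -0.59 under 17-OHPC/P4 and -0.94 under P4, with 31 and 39 of the 40 members below 0 (57.1% and 51.1% of all genes). Of 40 members, 17 were lower in each animal of the 17-OHPC/P4 arm (30.2% of all genes) and 26 in each of the P4 arm (25.8%). The examples in the P4 arm included CCR7 (-2.89 ± 1.0), GZMA (-1.90 ± 0.72), CD3D (-1.06 ± 0.35) and CD3E (-0.93 ± 0.30), with adjusted p of 0.0903, 0.122, 0.0791 and 0.0767.

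The arms were also compared at each sampling, before and after the injection. On treated day 7, 0 members were called by edgeR (all genes 0.0% higher and 0.0102% lower) and 1 by DESeq2 (0.424% of all genes lower), TNFRSF4, a receptor that sustains activated T cells. It had 7.20, 7.94 and 5.97 CPM in the 17-OHPC/P4 arm, against 27.8, 44.8 and 15.6 CPM in the P4 arm (-2.06 ± 0.37, edgeR adjusted p = 0.110, DESeq2 adjusted p = 0.000191). It was the 1 member lower at an unadjusted p under 0.05 (5.4% of all genes), 0 were higher (3.72%), and 19 of 40 lay below 0 (51.3%). Besides it, PRF1 was lower without overlap (2 of 40, 7.08%) and CD3E higher (1 of 40, 6.33%). The same separation stood in the untreated cycle. TNFRSF4 had 13.4, 5.58 and 8.05 CPM on control day 7 in the 17-OHPC/P4 arm, against 31.1, 21.6 and 17.6 CPM in the P4 arm (-1.38 ± 0.36, edgeR adjusted p = 0.202). On day 4 it had 9.09, 7.85 and 6.82 CPM in the 17-OHPC/P4 arm, against 21.0, 18.3 and 18.8 CPM in the P4 arm (-1.29 ± 0.36, edgeR adjusted p = 0.0675). All animals of the 17-OHPC/P4 arm lay below all of the P4 arm each time, and since arms are different cows, arm and animal cannot be told apart. Its changes between treated and control day 7 were -0.36 ± 0.36 under 17-OHPC/P4 and 0.33 ± 0.36 under P4, neither called.

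On control day 7, 0 members were called by edgeR (all genes 0.0% higher and 0.00509% lower) and 1 by DESeq2 (0.997% of all genes lower), again TNFRSF4. CD3D, CD3E, CD3G, LCK, ZAP70 and IL2RB, 6 of 40 members, were higher in the 17-OHPC/P4 arm without overlap (7.11% of all genes), and these 6 were also the members higher at an unadjusted p under 0.05 (4.81% of all genes). TNFRSF4 was the 1 lower, at an unadjusted p under 0.05 (5.83%) and without overlap (6.8%), and 7 of 40 lay below 0 (45.5%). CD3E differed by 1.02 ± 0.31 (adjusted p = 0.240) and IL2RB by 0.90 ± 0.30 (adjusted p = 0.298). On day 4, 0 members were called by edgeR (all genes 1.3% higher and 1.46% lower) and 5 by DESeq2, all lower in the 17-OHPC/P4 arm: GZMA, PRF1, TNFRSF4, CD5 and CD6. DESeq2 called 6.73% of all genes higher and 5.76% lower there. GZMA differed by -2.58 ± 0.74 (adjusted p = 0.0703) and PRF1 by -1.84 ± 0.63 (adjusted p = 0.111), and CD3E by 0.20 ± 0.30 (adjusted p = 0.730). Without overlap, 6 members were lower (15.5% of all genes), namely GZMA, both GZMB rows, TNFRSF4, CD5 and CD6, and 0 higher (15.6%). Before adjustment, 8 were lower at p under 0.05 (10.6% of all genes) and 0 higher (11.7%), and 32 of 40 lay below 0 (47.3%).

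Across the 18 libraries the likeness of members to each other is described here by Pearson's r of log2(CPM + 0.5), with no test because libraries share animals and depth. The CD3 and CD8 chains with their kinases varied together: with CD3E, CD3D had r = 0.92, LCK 0.90, CD3G 0.88, CD8B 0.88, ZAP70 0.87 and CD8A 0.86. These 6 were the members at 0.8 or above, a level that 0.214% of all tested genes reached. The cytotoxic genes are set against GZMA, a gene of comparison chosen after seeing the data. PRF1 had r = 0.90 with GZMA and 0.10 with CD3E, and the GZMB rows ENSBTAG00000010057 and ENSBTAG00000056468 had 0.88 and 0.31, and 0.86 and 0.30. NCR1 had 0.78 and 0.49. NKG7 was about as like GZMA as CD3E, at 0.64 and 0.56, and KLRK1 was more like CD3E, at 0.38 and 0.57. Outside the cytotoxic group, CD5 had 0.83 and 0.21, and CD4 0.79 and 0.27. The share of all genes that reach such values with GZMA was not computed. CD3G and CD3D had 0.08 and 0.14 with GZMA. CD2 and IL2RB stood between, with 0.67 and 0.66 for GZMA and 0.67 for both with CD3E. TNFRSF4 was the 1 member with a negative r with CD3E, at -0.53. Outside the members, genes among those most like CD3E were KDM8, PRIM1, PPEF2, CD96, NEK9, IL16, NSMAF, PDK3 and LIN52, with r from 0.86 to 0.83. CD96 is a receptor of T and NK cells, and IL16 a cytokine that binds CD4.

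**Figure D4:**
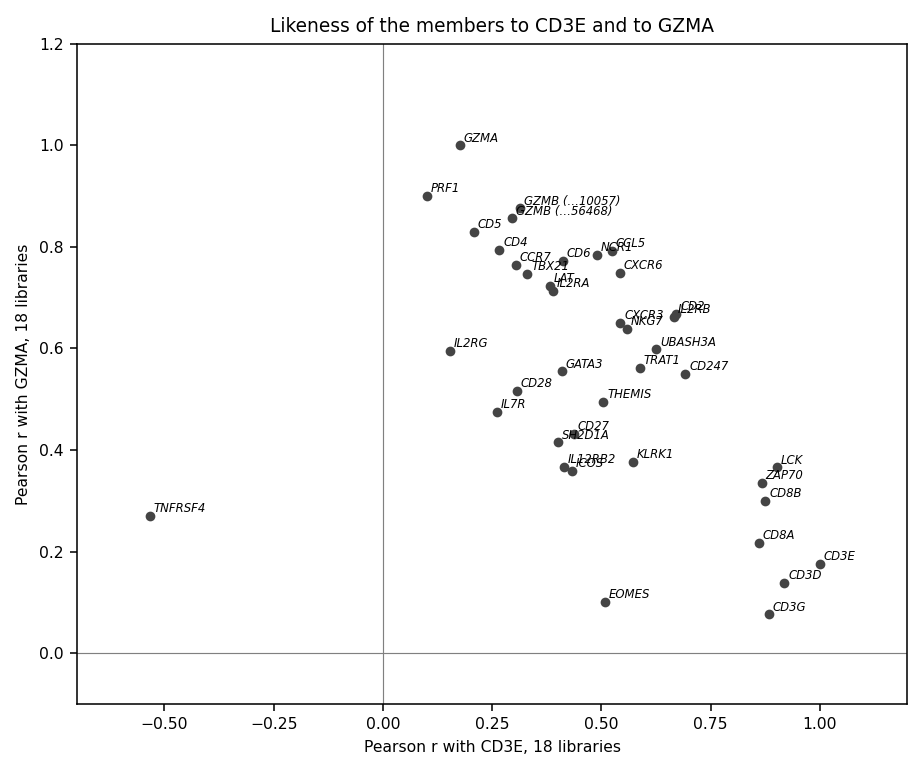
Pearson's r of each tested member with CD3E (horizontal axis) and with GZMA (vertical axis) over the 18 libraries. Each point is 1 row. CD3D, CD3G, CD8A, CD8B, LCK and ZAP70 lie at the right with r of 0.86 to 0.92 for CD3E. PRF1 and the GZMB rows lie at the top near the middle, with r of 0.86 to 0.90 for GZMA and 0.10 to 0.31 for CD3E. TNFRSF4 lies alone at the far left.

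Ratios of 2 genes within a library were compared within animals, in log2. Of 12 such tests over 6 animals none passed after adjustment (exact two-sided sign-flip permutation test, smallest p possible 0.03125). A ratio alone at that smallest p has an adjusted p of 0.375 over the 12 tests. A shift of 1 ratio in all 6 animals could therefore not pass, and the lack of passes does not show that the ratios were unchanged. The log2 ratio of CD8A to CD3E differed by 0.05 ± 0.13 (SD, n = 6) between control day 7 and day 4, and by -0.03 ± 0.22 between treated and control day 7 (adjusted p of the exact test 0.719 for both). The ratio of CD4 to CD8A differed by -0.17 ± 0.79 and 0.35 ± 0.63 in the same comparisons (adjusted p of the exact test 0.719 and 0.525). The ratio of PRF1 to CD3E was higher on treated than on control day 7 in 6 of 6 animals, by 0.42 ± 0.43 (exact p = 0.03125, adjusted p = 0.375). The ratio of IL2RB to CD3E differed by 0.20 ± 0.31 there (exact p = 0.156), and that of NCR1 to CD3E by 0.43 ± 0.98 (exact p = 0.344). Between control day 7 and day 4 the ratio of NCR1 to CD3E was lower in 5 of 6 animals, by -0.64 ± 1.05 (exact p = 0.156, adjusted p = 0.469). The spread of the CD8A to CD3E ratio between animals was the smallest of the 6 ratios in both comparisons.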

How the data were processed

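Bulk poly(A) RNA was sequenced as paired reads of 150 bases, per the labels. The authors deposited raw counts per gene, not normalized. Per the submitters' processing notes, tools included STAR, featureCounts, cutadapt, FastQC and DESeq2, with no versions. The sources used here do not give the genome build, annotation, strand setting or counting of read pairs. Rows were taken by symbol, and the reference table matched 0 identifiers, so no coordinates or sequences are given. Libraries totalled 29347255 to 40733544 counts.

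The counts went into edgeR's quasi-likelihood test (version 4.0.16, R 4.3.3, robust, TMM, filterByExpr), with 1 mean per group over all 18 libraries and Benjamini-Hochberg adjustment over 19638 genes, and a call is an adjusted p under 0.05. The script was tested on simulated data with a constant spread, no differences between animals and larger changes than most members had. That test does not show how often changes of the members' size would be found. The fit gave a biological coefficient of variation of 51.4%, which the block lowered to 39.4%. Levels are CPM with TMM factors, and within-animal changes are log2(CPM + 0.5). Ratios used a pseudocount of 0.1 CPM, with 0.5 CPM and each animal left out as alternatives. Alternatives were DESeq2 1.42.0, median-of-ratios factors, no filter, the compared groups only, the animal as a block, each library left out and, added after seeing the data, animals C and F left out.

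The labels tie the 3 libraries of each letter to 1 cow, so the letter pairs the samples. Deviations from group means correlated at 0.45 to 0.76 within animals A to C and at -0.17 to 0.40 within D to F. Replicates are separate animals within an arm.

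Values in every library are given for called members and for 15 set members named in the rule (CD3D, CD3E, CD3G, CD4, CD8A, CD8B, IL2RB, GZMA, GZMB, PRF1, NKG7, NCR1, CCL5, CTLA4 and GATA3), with TNFRSF4 added after their values were seen. From other lists, PTPRC, EPCAM, KRT8, VIM, PECAM1, CD79A, CD14, FOXP3, IFNG, CXCL10 and CD69 and up to 4 called members each are given, while TRDC, also in the rule, was not analysed. The genes most like CD3E are the 10 with the highest Pearson's r outside the members, of which 1 is not reported here. The members, the 17 other lists and the tests were chosen with earlier results of these data known, so a pattern those results show is not independent support.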

Additional observations from a re-analysis of the deposited data

Results flagged for a closer look

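Among 32 sets of 6 within-animal changes in log2(CPM + 0.5), 4 had 1 animal far from the other 5 by Dixon's ratio, of which chance flags about 1 in 20. Between control day 7 and day 4, CD8B changed by -1.54 in animal F and by -0.61 to -0.30 in the others. NKG7 changed by -2.04 in animal F and by -0.63 to 0.15 in the others. Between treated and control day 7, CTLA4 changed by -1.23 in animal C and by -0.16 to 0.19 in the others, on counts of 4 and 38. The GZMB row ENSBTAG00000056468 changed by -1.08 in animal C and by 0.45 to 1.19 in the others.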

How the results depend on the processing

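The counts of called members that moved by over 1.5 times were those of the day 7 against day 4 comparisons, of treated day 7 against control day 4 in the P4 arm, and of the arms set against each other. Over both arms 2 members were called on day 7 against day 4, and the count was 13 with the animal as a block, 9 with DESeq2, and 1 with no filter on low counts, with the compared groups only, without animal C or without animal F. It ran from 0 to 5 with each library left out. In the P4 arm the count of 5 became 17 with the animal as a block, 13 with DESeq2, 2 with no filter and 0 without animal F, and ran from 0 to 4 with each library left out. For treated day 7 against control day 4 in the P4 arm the count of 0 became 9 with the animal as a block, 4 with DESeq2 and 3 with the compared groups only, and ran from 0 to 1 with each library left out. The share of all genes called lower there was 3.16% in the main fit, 5.99% with the block, 6.19% with DESeq2 and 4.39% with the compared groups only. Between the arms DESeq2 gave 1 on treated day 7, 1 on control day 7 and 5 on day 4, in place of 0. Calls over all genes moved in the same direction as these counts for the P4 arm on day 7 against day 4: 4.0% of all genes were called lower, against 7.33% with the block, 7.74% with DESeq2, 1.41% with no filter and 1.9% without animal F. Over both arms 4.28% were lower, against 7.32%, 7.0% and 1.56% for the block, DESeq2 and no filter, 2.83% with the compared groups only, and 2.88% and 4.3% without animals C and F. The block changed no other count of calls, and median-of-ratios factors changed none. The causes of these shifts were not tested. Of single members under all alternatives, 44 values passed that did not in the main test, 47 no longer passed, and none changed sign past the threshold. The pseudocount of 0.5 CPM moved no ratio by more than its spread between animals. Leaving out 1 animal changed the sign of 5 mean log2 ratios, each by less than that spread and with no call on either side: CD4 to CD8A on day 7 against day 4 became 0.01 without A, PRF1 to CD3E there 0.14 without F, CTLA4 to CD3E under treatment 0.12 without C, and CD8A to CD3E under treatment 0.02 without D and 0.0045 without E. Low counts limit CTLA4, CD28, THEMIS, EOMES, NCR1, GATA3, ICOS, CXCR3 and the GZMB row ENSBTAG00000010057, with medians under 1 CPM. Outside the members, IL10, IFNG, CD69 and CCL20 also had medians under 1 CPM. Where 0 members were called with 3 animals per arm, differences were not detectable at this spread between animals, and are not shown to be absent.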
